A study of Homo sapiens with 4 samples.

Results

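The ubiquitin-specific proteases, named USP with a number, together with CYLD, are the largest family of human deubiquitinases, and their transcripts were followed here in DU145 prostate carcinoma cells with and without an shRNA against DCUN1D1. Members were chosen by symbol: every probe set (a group of short probes for 1 transcript) whose platform annotation names exactly 1 gene, and whose gene symbol is USP followed by a number, with or without a final X or L, or is CYLD. This gave 140 probe sets of 48 genes, out of 40914 probe sets and 19774 genes measured in this way. Gene IDs placed all 48 genes in RefSeq's annotation of GRCh38.p14. DU145 is an established line from a human prostate carcinoma that grows without androgen. The 4 arrays are 1-colour Affymetrix chips. The shGFP control group (DU145-GFP) has 2 of them and the shDCUN1D1 knockdown group (DU145-DCUN1D1-KD) the other 2. Cells of both groups were stably transduced (with lentivirus, by the methods) and, by the records, kept in culture for 16 h before extraction. The microarray methods describe a longer incubation between infection and RNA collection. How long after infection the RNA was taken is not settled here. The records call the arrays of a group biological duplicates. The methods describe 2 shRNAs against DCUN1D1. No label ties a knockdown array to either hairpin. The comparison asks which transcripts differ when DCUN1D1, which helps to attach the ubiquitin-like protein NEDD8 to cullins, is targeted.

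Deubiquitinases remove ubiquitin from proteins or trim its chains, and so act against the ubiquitin ligases, of which the NEDD8-activated cullin-RING ligases are the largest class. The USP enzymes are cysteine proteases with a shared catalytic fold and very different partners. Some of them stabilize oncoproteins or p53 regulators, others recycle ubiquitin at the proteasome or strip it from histones, and CYLD restrains NF-κB and WNT signalling. Their transcripts say nothing directly of the enzymes' activity, which was not measured on these arrays.

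Values are log2 signals, and differences are log2 fold changes, knockdown minus control, each from 2 arrays against 2. They were tested with limma over all 40914 probe sets. A probe set counted as past the fold bound, in either direction, if the 90% confidence interval of its fold change (SE, standard error) lay wholly beyond 1.2-fold, the level and cut-off that the study's methods use, computed here from limma's moderated standard error. The smallest two-sided p that an exact permutation test of 2 arrays against 2 allows is 0.333, so no single value could pass such a test. A sample of whole cultures cannot tell fewer cells with a transcript from less of it per cell.

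The arrays differed in ways that touch these results. Background was judged by a nonspecific control, a probe set designed against no human transcript whose probes hold 20 G or C bases. It gave 2.97 (replicate 1) and 3.30 (replicate 2) with shGFP, and 2.48 and 2.51 with shDCUN1D1. The nonspecific control with 17 G or C bases read lower, 2.19 and 2.34 with shGFP and 1.80 and 1.92 with shDCUN1D1. The cut used here is thus strict, and values between these levels count as background. Of 23 such nonspecific controls, 20 were lower in both knockdown arrays than in both control arrays. A further control probe set, BioB-M, which matches no human gene, read 8.22 and 10.49 with shGFP and 6.37 and 6.22 with shDCUN1D1. The part of this difference in the results was not tested. Knockdown replicate 1 stood apart: over all probe sets it correlated at 0.722, 0.661 and 0.746 with control replicates 1 and 2 and knockdown replicate 2, and the GAPDH control for the transcript's 3′ end read 10.82 in it and 4.68 to 5.09 in the others. Knockdown replicate 2 correlated at 0.916 with control replicate 1 and at 0.827 with control replicate 2, and the 2 controls at 0.914 with each other. By these correlations the arrays did not group by treatment. DCUN1D1 on its brightest probe set read 2.55 and 1.99 with shGFP and 1.6 and 1.45 with shDCUN1D1, a log2 fold change of −0.75 (limma adjusted p = 0.625, standard error 0.26) that was not past the fold bound and lay at background level. Its other 5 probe sets had values from −0.47 to 0.12, of which 2 were positive, and none was past the bound. The paper reports strongly reduced DCUN1D1 mRNA by real-time PCR and protein by Western blot in DU145 cells given the shRNA. Those measurements are separate from these arrays. Of 8 markers listed for DU145, most of them epithelial, VIM and KRT8 alone were above the nonspecific control in all 4 arrays, VIM at 10.28 to 11.62. EPCAM, CDH1, KRT19 and EGFR lay below it in every array, as did the leukocyte markers PTPRC and CD3E and the endothelial markers PECAM1 and CDH5. KRT18 and MET lay above it only in knockdown replicate 1, KRT18 at 7.62 against 1.63 to 1.69 elsewhere. Of 3 fibroblast markers, COL1A1 read 3.38 to 4.75 and lay above it, and COL3A1 (1.47 to 1.99) and DCN (2.30 to 2.69) lay below. Among markers of luminal androgen-dependent cells, TMPRSS2 (2.90 to 3.72) lay above it in every array but control replicate 2. KLK3 (1.64 to 2.77) lay above it only in knockdown replicate 2.

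Most of the family gave little signal. Of the 140 probe sets, 6 exceeded the nonspecific control in both control arrays and 15 in both knockdown arrays, or 4.29% and 10.7%, against 5.27% and 10.6% of all probe sets. In all 4 arrays this held for 5 probe sets, against 4.39% of all, those of USP5, USP7, USP15, USP34 and USP36. It held in both knockdown arrays but not in both controls for 10 probe sets, or 7.14% against 6.18% of all, and in both controls but not in both knockdown arrays for 1, against 0.875% of all, which belongs to USP2. Together 16 probe sets, or 11.4%, exceeded it in both arrays of a group, against 11.5% of all. The threshold is itself lower in the knockdown arrays, by the difference of the nonspecific controls given above. The remaining 124 probe sets did not exceed it in both arrays of either group, so that most values below are at or near background by this strict cut.

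Past the fold bound, 2 of the 140 probe sets were higher and 3 lower. Over all probe sets 1.18% were higher and 2.38% lower, or 3.56% in either direction, and the family's share was 3.57%, so the family held about as many as any probe sets. The higher ones belong to USP11 and USP13, and the lower ones to USP2, USP25 and USP47. No member passed limma's adjusted p of 0.05, as was the case for all probe sets (0%), with a smallest adjusted p of 0.625 among the members. Before adjustment, limma's p was under 0.05 for 4 members with higher and 7 with lower signal, 2.86% and 5% of the family, against 2.3% and 5.25% of all probe sets. The methods' t-test gave 1 higher and 8 lower members at that level, or 0.714% and 5.71% against 1.94% and 5.22% of all probe sets. After Benjamini–Hochberg adjustment it gave 0 members, and 1 higher and 0 lower among all probe sets. Without knockdown replicate 1 the higher members past the bound were 10, or 7.14% against 2.94% of all probe sets, and without knockdown replicate 2 they were 16, or 11.4% against 9.80%. Without control replicate 1 they were 1, against 0.912% of all, and without control replicate 2 they were 0, against 0.115%.

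**Figure D1:**
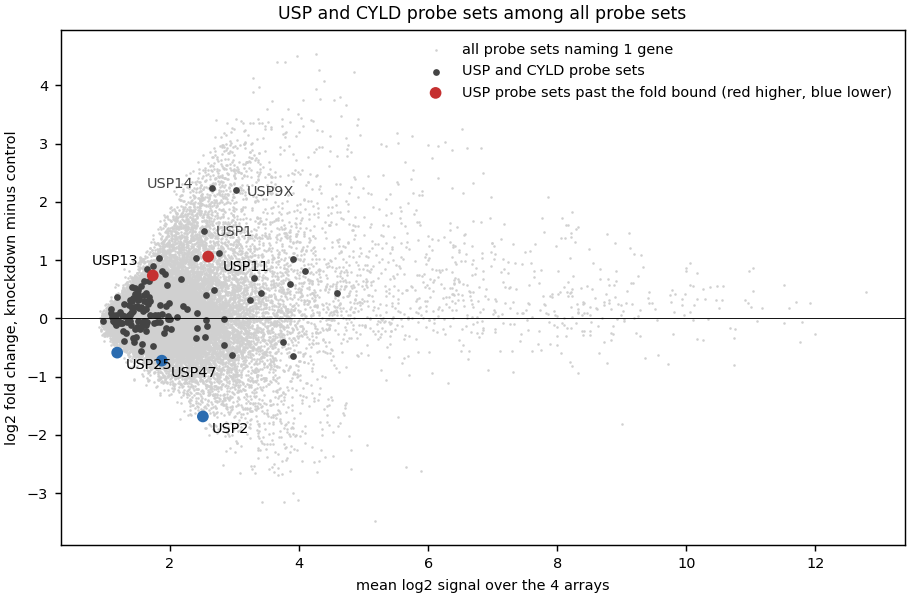
Log2 fold change, knockdown minus control, plotted over the mean log2 signal of the arrays, for all 40914 probe sets naming 1 gene (light grey) and the 140 USP and CYLD probe sets (dark). Red and blue mark the 2 higher and 3 lower members past the fold bound, USP2 lying lowest at −1.68, and USP14, USP9X and USP1 are the highest members, none of them past the bound.

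USP2 had the largest decrease in the family. It is a deubiquitinase known in prostate cancer for stabilizing fatty acid synthase and MDM2, and its gene lies on chromosome 11 from 119355215 to 119381690 (GRCh38.p14). Its probe set 230965_PM_at gave 3.11 and 3.59 with shGFP and 1.63 and 1.70 with shDCUN1D1, replicate 1 first here and below. Both control arrays were above the nonspecific control and both knockdown arrays below it, so the groups did not overlap and the knockdown value is at background. The log2 fold change was −1.68 (limma adjusted p = 0.625, standard error 0.31), and the signal was 68.8% less, by at least 2.10-fold at the lower bound. The probe set stayed past the bound in every alternative fit over probe sets, including those that left out each array, where its log2 fold change lay between −1.92 and −1.44. The fit restricted to probe sets above the nonspecific control cannot count toward this. The probe set passed that filter only through the control arrays, where it is high. The other 3 USP2 probe sets had log2 fold changes of −0.18 to −0.13 and none was past the bound. The brightest of them, 207211_PM_at, read 2.50 and 2.76 with shGFP and 2.40 and 2.60 with shDCUN1D1, so the decrease was seen on 1 of 4 probe sets, and USP2 was not called when each gene was represented by its brightest probe set. Which USP2 transcript the probe set reads was not determined.

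USP11 and USP13 were the higher members. USP11, an X-linked enzyme (chromosome X from 47233009 to 47248328) with roles in repair of DNA breaks, has 1 probe set, which read 2.09 and 2.03 with shGFP and 3.37 and 2.87 with shDCUN1D1. Both knockdown arrays were above both controls and above their own nonspecific control, while the controls lay below theirs. Its log2 fold change was 1.06 (limma adjusted p = 0.625, standard error 0.32), 2.09 times the control signal. It was 0.81 without knockdown replicate 1, and then not past the bound, nor was it without either control array.

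USP13 is a relative of USP5 that acts in degradation of endoplasmic reticulum proteins. Its probe set 227788_PM_at read 1.55 and 1.18 with shGFP and 2.11 and 2.09 with shDCUN1D1, all below the nonspecific control, with a log2 fold change of 0.74 (limma adjusted p = 0.625, standard error 0.20). The other probe sets of USP13 went both ways, with log2 fold changes of 0.57 and −0.39. The first of these read 1.54 and 1.80 with shGFP and 2.09 and 2.40 with shDCUN1D1, again without overlap. The second read 1.58 and 1.38 with shGFP and 1.15 and 1.03 with shDCUN1D1, lower and also without overlap, so the gene's probe sets disagree. Without control replicate 2 the called probe set had 0.55 and was not past the bound, nor was it with unmoderated standard errors.

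The lower probe sets of USP25 and USP47 were each the 1 probe set of their gene past the bound. USP25, an enzyme of interleukin-17 signalling and of tankyrase stability, read 1.66 and 1.28 with shGFP and 0.94 and 0.84 with shDCUN1D1 on 1555558_PM_at, a log2 fold change of −0.59 (SE 0.15), all below the nonspecific control. Of its other 4 probe sets, 3 had values of −0.14 to −0.04 and 220419_PM_s_at had 0.52. Without control replicate 1 the lower probe set had −0.40 and was not past the bound, nor was it without knockdown replicate 2, after quantile normalization or median centring, without the variance trend or with unmoderated standard errors.

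USP47 takes part in base excision repair and binds the β-TrCP receptor of SCF ligases. It read 2.11 and 2.36 with shGFP and 1.57 and 1.45 with shDCUN1D1 on 223119_PM_s_at, a log2 fold change of −0.73 (SE 0.20). Its other 4 probe sets had positive values, 0.06 to 0.59. The brightest, 221518_PM_s_at, read 3.83 and 3.29 with shGFP and 4.48 and 3.82 with shDCUN1D1, so the groups overlapped there. With the replicate number as a block the lower probe set was not past the bound, nor was it without control replicate 2 or without knockdown replicate 2.

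With each gene represented by its brightest probe set, 1 of 48 was higher past the bound (USP11) and 0 were lower, against 1.57% and 3.64% of all genes. In either direction this was 2.08% of the family, against 5.21% of all genes. The called probe sets of USP2, USP13, USP25 and USP47 are not the brightest of their genes, and these genes were not called. The median log2 fold change was 0.11 over the 48 genes and −0.01 over all genes, and 0.07 over the 140 probe sets against −0.01 over all probe sets. Positive values were found in 57.1% of the family's probe sets and in 48.3% of all. Both knockdown arrays were above both controls for 40 of the 140 probe sets, or 28.6% against 17.9% of all, and below both for 26, or 18.6% against 25%. More of the family thus lay on the positive side than of all probe sets, by small amounts: the quartiles of the members' log2 fold changes were −0.08 and 0.36. The lean differed by type of probe set. The median was −1e-05 for the 83 member probe sets whose names end in plain _at and 0.21 for the 46 ending in s_at. How all probe sets differ by type was not examined. Of the 36 genes of other deubiquitinase families, 20 had positive values, so the lean is not particular to this family. Over probe sets, the median of the family was 0.14 without control replicate 1 and 0.04 without control replicate 2, where that of all was 0.00 and −0.01. Without knockdown replicate 1 it was 0.06 against 0.01, and without knockdown replicate 2 it was 0.03 against −0.07.

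**Figure D2:**
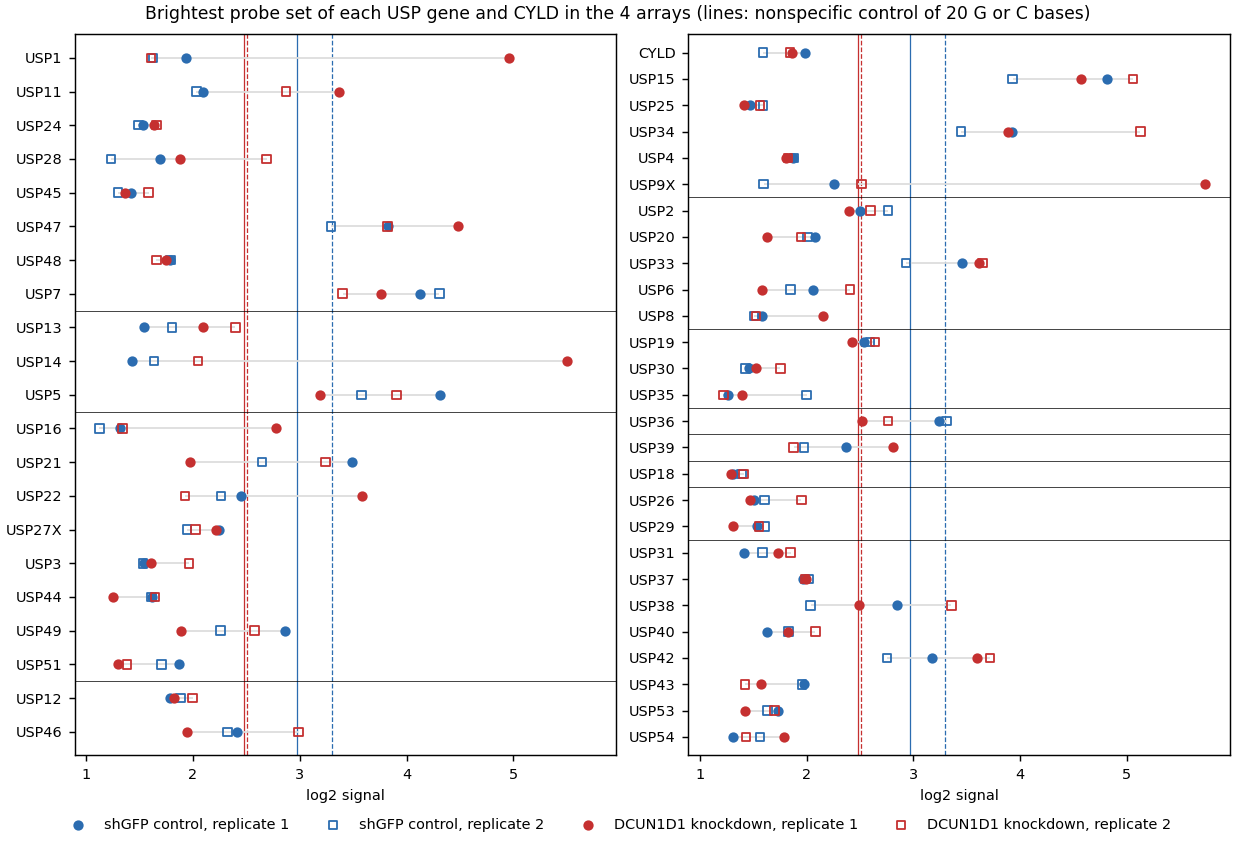
Log2 signal of the brightest probe set of each of the 48 genes in each array. Blue symbols are shGFP and red ones shDCUN1D1, with filled circles for replicate 1 and open squares for replicate 2. Thin black lines separate the groups by role, on the left DNA repair and p53, free chains and proteasome, histones, and enzymes activated by WDR48, and on the right WNT, TGF-β and NF-κB signalling, endosome and membrane traffic, organelles, nucleolus, splicing, interferon, germ line and less characterized enzymes. Vertical lines show the nonspecific control in each array (replicate 1 solid, replicate 2 dashed), above which few genes lie.

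Among the 8 enzymes of DNA repair and p53 control measured, 1 was higher past the bound, USP11, and 0 lower, with a median log2 fold change of 0.36 over their brightest probe sets. Over all 26 probe sets of these enzymes the median was 0.11, and 1 was higher (USP11) and 1 lower (USP47). USP7, which removes ubiquitin from MDM2 and p53, was one of the few members with signal above background in every array. Its brightest probe set read 4.13 and 4.31 with shGFP and 3.76 and 3.40 with shDCUN1D1, with both knockdown arrays below both controls, but the log2 fold change of −0.64 had a standard error of 0.48 and did not pass. A further USP7 probe set had 0.31, from 3.39 and 2.77 with shGFP and 3.56 and 3.22 with shDCUN1D1, and the other 2 had −0.17 and −0.07, so that 3 of 4 were negative and none passed. USP1, which with its partner WDR48 acts on FANCD2 and PCNA, gave 1.93 and 1.63 with shGFP and 4.96 and 1.61 with shDCUN1D1. Its signal was thus high in 1 array only, and the log2 fold change of 1.5 (SE 1.09) did not pass.

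Of the 3 enzymes of free ubiquitin chains and the proteasome, 0 were past the bound on their brightest probe sets. USP5, which takes apart unanchored chains, was above background in all arrays, with 4.31 and 3.58 with shGFP and 3.19 and 3.90 with shDCUN1D1. The groups overlapped, and the log2 fold change was −0.40 (SE 0.55). USP14, the deubiquitinase bound to the proteasome, had the largest positive log2 fold change in the family, 2.24 (SE 1.12). It read 1.43 and 1.64 with shGFP and 5.50 and 2.05 with shDCUN1D1, so the size of the difference came from knockdown replicate 1, without which it was 0.52.

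For the 8 histone and chromatin enzymes the median log2 fold change was −0.07 over brightest probe sets and 0.22 over all 21 probe sets, and 0 were past the bound at either level. USP22, the deubiquitinase of the SAGA coactivator complex, read 2.45 and 2.26 with shGFP and 3.58 and 1.92 with shDCUN1D1, the knockdown arrays lying on either side of the controls. USP21, which acts on histone H2A, read 3.49 and 2.65 with shGFP and 1.97 and 3.24 with shDCUN1D1 on its brightest probe set, also overlapping. The remaining 2 USP21 probe sets were brightest in knockdown replicate 2, with log2 fold changes of 1.12 and 0.77.

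Of the 6 enzymes of WNT, TGF-β and NF-κB signalling, 0 were past the bound on their brightest probe sets. CYLD has 7 probe sets, 3 with positive and 4 with negative log2 fold changes, from −0.34 to 0.23. The brightest read 1.98 and 1.59 with shGFP and 1.86 and 1.84 with shDCUN1D1, all below the nonspecific control, and no CYLD probe set was past the bound. USP15, an enzyme of TGF-β signalling that also associates with the COP9 signalosome, had the highest mean signal of the family. It read 4.81 and 3.93 with shGFP and 4.57 and 5.05 with shDCUN1D1, with a log2 fold change of 0.44 (SE 0.63), and the groups overlapped. USP34, which stabilizes axin, read 3.93 and 3.45 with shGFP and 3.89 and 5.12 with shDCUN1D1, with a log2 fold change of 0.82 (SE 0.64), and here knockdown replicate 2 alone stood above the rest. USP9X, an X-linked enzyme with substrates such as MCL1 and SMAD4, read 2.25 and 1.6 with shGFP and 5.73 and 2.51 with shDCUN1D1 on its brightest probe set, a log2 fold change of 2.20 (SE 1.09). It was past the bound only with the replicate block or without knockdown replicate 2. Another USP9X probe set, 229573_PM_at, read 2.85 in both controls and 2.70 and 2.97 after knockdown, a log2 fold change of −0.01.

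Of the members in the remaining groups, the USP2 probe set described above was the 1 past the bound. USP33, an enzyme that binds the VHL protein, read 3.46 and 2.93 with shGFP and 3.61 and 3.64 with shDCUN1D1, a log2 fold change of 0.43 (SE 0.43). Its knockdown arrays lay above both controls by less than the controls differed from each other. USP42, a p53 deubiquitinase placed here with the less characterized enzymes, read 3.17 and 2.75 with shGFP and 3.59 and 3.72 with shDCUN1D1, a log2 fold change of 0.69 (SE 0.41) that did not pass, although all 5 of its probe sets had positive values. USP36, a nucleolar enzyme that stabilizes MYC, went the opposite way on its brightest probe set, with 3.24 and 3.31 with shGFP and 2.52 and 2.76 with shDCUN1D1, a log2 fold change of −0.63 (SE 0.34). Neither group of USP36 values overlapped the other, and the median difference of the nonspecific controls was −0.29. This probe set was past the bound only without the variance trend or with unmoderated standard errors. A second USP36 probe set, 224978_PM_s_at, read 2.03 and 1.62 with shGFP and 2.51 and 2.49 with shDCUN1D1, a log2 fold change of 0.68, so the gene's probe sets disagree. USP39, a spliceosome protein that lacks protease activity, read 2.37 and 1.97 with shGFP and 2.81 and 1.88 with shDCUN1D1. USP18, which removes the ubiquitin-like ISG15 and is induced by interferon, read 1.31 and 1.39 with shGFP and 1.29 and 1.41 with shDCUN1D1, all at background.

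**Figure D3:**
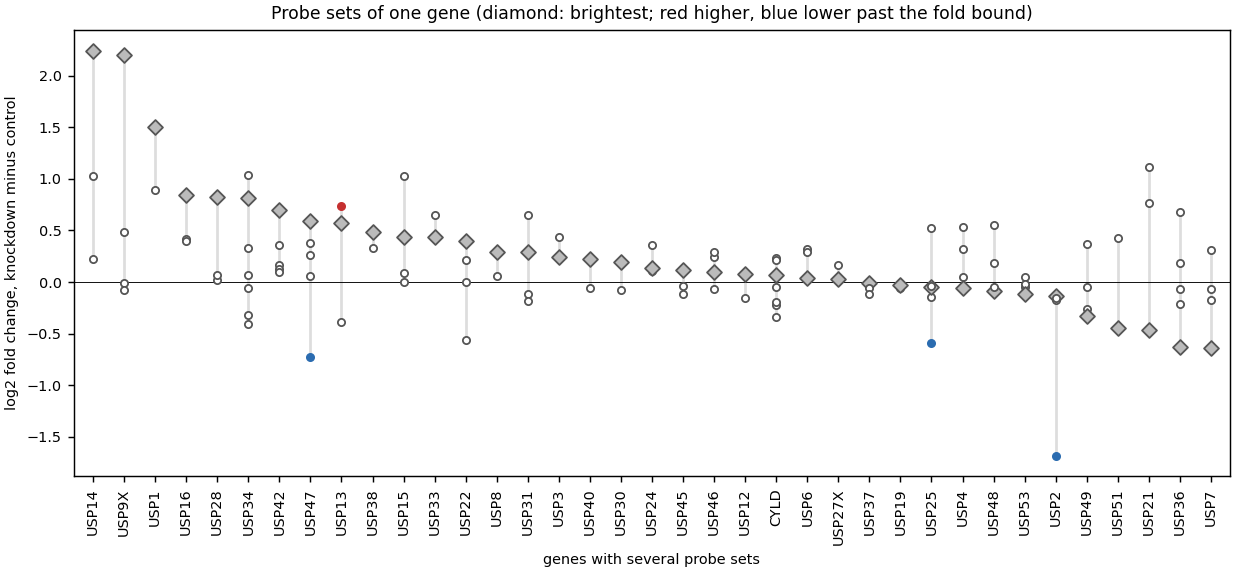
Log2 fold change, knockdown minus control, of every probe set of the 37 member genes that have several, ordered by the value of the brightest probe set (diamonds; other probe sets as circles). Red and blue mark probe sets past the fold bound, and grey or white those that are not. The called probe sets of USP2, USP25 and USP47 are the lowest of their genes.

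Probe sets of 1 gene often disagreed. Of the 37 member genes with several probe sets, 12 had only positive log2 fold changes, 3 only negative ones and 22 had both, which is 59.5% of them, against 60.7% of all genes with several probe sets. Only positive values were found in 32.4% of the member genes and 18.5% of all, and only negative values in 8.11% and 20.8%. Those with only negative values were USP2, USP19 and USP37, of which USP19 and USP37 lay between −0.12 and −0.01. None of the 5 called probe sets had another called probe set of its gene in the same direction. For 6 of the 37 genes the mean over the probe sets had the opposite sign to the brightest one.

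Some member probe sets were high in a single array, a description that by its rule leaves out any probe set high in both knockdown arrays. Knockdown replicate 1 exceeded every other array by over 2 log2 on 3 member probe sets, those of USP1, USP9X and USP14 given above, or 2.14% against 3.46% of all probe sets, while 0 members did so in knockdown replicate 2 or in control replicate 2, against 0% and 0.0122% of all. A limit of 1 log2 added other probe sets of the same genes, of which the second USP1 probe set read 3.05 in knockdown replicate 1 and 1.22 to 1.36 elsewhere, and probe set 201671_PM_x_at of USP14 read 3.87 and 1.73 to 2.05. It also added USP16, a deubiquitinase of histone H2A, with 2.78 against 1.12 to 1.34, and USP22, for 8 member probe sets in all, 5.71% against 6.57% of all probe sets. In knockdown replicate 2 the limit of 1 log2 was passed by 4 member probe sets, or 2.86% against 0.369% of all, namely 2 each of USP21 and USP34. Of these, 212065_PM_s_at of USP34 read 3.13 in knockdown replicate 2 and 1.16 to 1.58 elsewhere, and 232219_PM_x_at of USP21 read 4.06 and 1.61 to 2.79. Names ending in x_at mark probe sets with probes that can match other transcripts, as some of those for USP14, USP16 and USP21 do. That knockdown replicate 1 also differed in the 3′ signal of GAPDH is given above, and its part in these values was not tested.

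**Figure D4:**
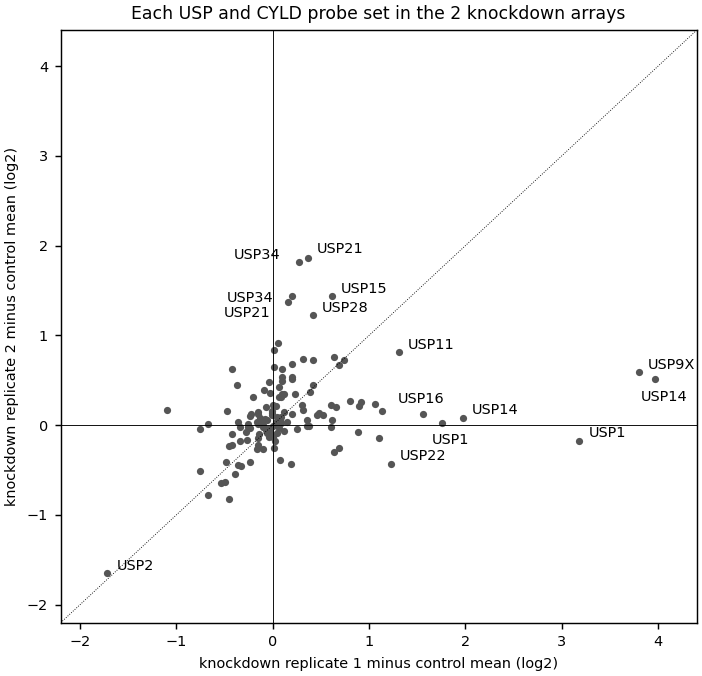
Each of the 140 USP and CYLD probe sets by its log2 signal minus the mean of the 2 control arrays, in knockdown replicate 1 (horizontal axis) and knockdown replicate 2 (vertical axis), with the dotted line marking equal values. USP1, USP9X and USP14 lie far to the right and USP21 and USP34 toward the top, and the probe set of USP2 lies low in both arrays.

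With knockdown replicate 1 as the only knockdown array, limma called 9 member probe sets higher at an adjusted p under 0.05, which is 6.43% of the family against 6.36% of all probe sets in that fit. They belong to USP1, USP9X, USP14, USP16, USP31 and USP33. That fit assumes that the lone array varies as the control arrays do. With knockdown replicate 2 as the only knockdown array, 10 members were higher past the fold bound, 7.14% against 2.94% of all probe sets, and 0 passed the adjusted p. They belong to USP13, USP21, USP25, USP28, USP34, USP42, USP49 and USP51.

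The deubiquitinases of other families gave 0 higher and 0 lower genes past the fold bound among 36 measured, with a median log2 fold change of 0.08 and a range from −0.79 to 2.59. The upper end is UCHL1, which read 1.68 and 1.39 with shGFP and 6.27 and 1.97 with shDCUN1D1. Its signal was thus high in knockdown replicate 1 only, without which its log2 fold change was 0.44. Of the proteins that USP enzymes work with and the ubiquitin genes, 13 were measured and 0 were past the bound, with a median of −0.03. UBB, which encodes polyubiquitin, was the 1 ubiquitin gene measured, and read 6.20 and 5.78 with shGFP and 8.79 and 6.5 with shDCUN1D1, a log2 fold change of 1.65 (SE 0.88, from the fit over genes) that did not pass. ENY2, which belongs with USP22 to the deubiquitinase module of SAGA, read 9.14 and 9.17 with shGFP and 8.33 and 8.46 with shDCUN1D1, with no overlap, and its log2 fold change of −0.76 (SE 0.33) did not pass the bound. The mean over all ENY2 probe sets was −0.22. UCHL1, UBB and ENY2 were chosen for naming after their values were seen.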

How the data were processed

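RNA of DU145 cells with an shRNA against GFP or DCUN1D1 was measured on 2 arrays each. The authors deposited 1 table of log2 signals per probe set and array. Affymetrix Expression Console appears in the processing notes of the submitters and dChip in the methods. Which program made the values remains unknown here. The values were used without further scaling.

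Probe sets that the platform annotation assigns to 1 gene were fitted with limma (version 3.58.1, R 4.3.3) using the mean-variance trend, and p-values were adjusted by Benjamini–Hochberg, and a second fit took the brightest probe set of each gene. The scripts were tested on simulated data. The members, lists and tests were chosen with earlier results of these data known. Members were grouped by role from general knowledge. Named were members past the fold bound, the 10 with the highest mean signal and 10 fixed genes. An array has no read depth, so precision depends on how many arrays there are. The p-values rest on the spread between these duplicates, which limma moderates with a variance trend over all probe sets or genes fitted. Alternatives were 2 normalizations, 2 filters, other variance models, a replicate block, other thresholds, averaging a gene's probe sets, the methods' t-test and leaving out each array. Of 52 USP and CYLD genes listed, 4 were not analysed here.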

Additional observations from a re-analysis of the deposited data

How the results depend on the processing

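The precision rests on 2 arrays per group and on a signal that exceeded the nonspecific control in both arrays of a group for 16 of 140 probe sets. Against 2 higher and 3 lower members past the fold bound, probe sets restricted to those above the nonspecific controls gave 1 higher and 1 lower (USP11 and USP2, which each passed that filter only through the group where they are high), or 6.25% each of the 16 left against 6.98% and 9.65% of all, unmoderated standard errors gave 1 higher, and a bound of 1.5 gave 0 higher and 1 lower (USP2). Leaving out 1 array gave 0 to 16 higher and 1 to 3 lower, while the higher ones among all probe sets went from 47 to 4008. For genes on their brightest probe set (1 higher, 0 lower), quantile normalization and the replicate block each gave 2 higher, the bound of 1.5 gave 0, unmoderated errors gave 1 lower, and leaving out 1 array gave 0 to 6 higher and 0 to 1 lower. Leaving out 1 array gave 0 to 9 members with adjusted p under 0.05, the 9 without knockdown replicate 2. The other deubiquitinases (0 and 0) gave 1 lower with unmoderated errors and 0 to 5 higher and 0 to 1 lower without 1 array. On probe sets the replicate block gave 3 higher and 2 lower. The deviations of arrays with the same number correlated at −0.04 over probe sets. With 2 arrays per group, 1 of them standing apart, this cannot exclude a pairing. The main fit did not take the numbers as pairs. No probe set past the bound changed sign under the alternatives run on probe sets, while averaging the probe sets of USP47 gave 0.11 against −0.73 for its called one. The cause of these differences was not tested.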
